A study of Mus musculus with 2 samples.

Results

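Distal intergenic open chromatin was described in nuclei of mouse liver. The genome was divided into tiles of 1 kb, and a tile was taken as a distal open tile when it lay on an autosome, outside every protein-coding gene body and more than 10 kb from any protein-coding gene start or end, and held at least 50 fragments from at least 30 cells over both libraries together. This rule gave 11322 tiles among 1231884 distal tiles (0.919%). They are part of 57920 autosomal tiles that passed the same minimums, of which 33276 lay within 10 kb of a gene start or end and 13322 lay inside a gene, farther from its ends. The fragment and cell numbers of the tiles chose them, so these numbers are given as a description and support nothing.

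The measurement was droplet-based single-nucleus ATAC-seq, in which a transposase cuts accessible DNA and tags it for sequencing. The libraries were made from 1 mouse of genotype Spta sph/sph and 1 littermate of genotype Spta wt/wt, both untreated males of 8 to 10 weeks, with 1 library per genotype. Livers were digested with collagenase, the cells that pelleted at low speed were discarded, and the remaining non-parenchymal cells were enriched with beads against F4/80, the surface protein of tissue macrophages encoded by Adgre1. The sph allele affects spectrin of the red cell membrane, and nothing used here tells which barcode suffix belongs to which genotype. The suffixes are called library 1 and library 2, the genotypes are not compared, and with 1 library each there is no replicate and no test. Intervals are at the 95% level and hold counting error alone.

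Most enhancers lie far from gene starts. An enhancer is a stretch of DNA that binds transcription factors, loses its nucleosome and acts on a promoter that may be far away along the chromosome, not always that of the nearest gene. Enhancers are used by fewer cell types than promoters are. In macrophages many of them are bound by PU.1, encoded by Spi1, together with factors that respond to the tissue, and in endothelial cells many carry sites of ETS factors such as Erg and Fli1. Kupffer cells, the resident macrophages of the liver sinusoid, clear aged and damaged red cells and recycle their iron.

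Library 1 held 637 called cells and library 2 held 575, of which 609 and 562 passed the filters on depth and on the share of fragments in peaks. The median called cell had 13220 and 13186 fragments, of which 72.1% and 53.7% lay in the authors' peaks. The distal open tiles took 8.01% of the fragments of called cells in library 1 and 5.24% in library 2. No cell barcode was shared by the libraries. Cells were clustered on 5 kb bins that held no distal open tile, so that the classes did not rest on the tiles described here. Kupffer-like cells numbered 334 and 278, endothelial-like cells 136 and 101, and stellate or fibroblast-like cells 65 and 23 in libraries 1 and 2. A further 50 and 57 cells formed 1 cluster in each library with Gpr141 and F7 among its leading genes; they are called the Gpr141/F7 clusters and carry no cell type name here, although they scored highest for monocyte markers in library 1 and for dendritic markers in library 2. In addition, library 1 alone had 24 hepatocyte-like cells, and library 2 alone had 31 erythroid-like cells (5.52% of its filtered cells) and 72 unnamed cells (12.8%, with a median of 35% of fragments in peaks). The 12 Kupffer markers summed to 1089 CPM (fragments in the gene windows, scaled to the same total of fragments for every class) in Kupffer-like cells of library 1 and 591 in library 2, against 218 and 146 in endothelial-like cells. None of the 12 was at 0 in the Kupffer-like cells. The 13 endothelial markers summed to 2496 and 1603 CPM in endothelial-like cells and to 597 and 532 in Kupffer-like cells. Stab2, an endothelial scavenger receptor, made up 215 and 161 CPM of the latter, and no endothelial marker was at 0 there. The part of this endothelial signal in the class ratios was not tested. The Kupffer-like cells of library 2 fell into 2 clusters, of 149 cells with a median of 61.6% of fragments in peaks and of 129 cells with 45.8%.

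Some of the tiles hold the annotated start of a long noncoding RNA (lncRNA), and their sequences are shown because they are the members for which a reference sequence was used. In RefSeq's start windows (250 bases before to 50 bases after the start, GRCm38.p6), 502 windows of 426 lncRNAs had their start in 422 of the tiles, or 3.73% of them. A set of 5 is printed in lower case, 5′ to 3′ on the strand of the RNA, with any of the 12 factor words searched in capitals. The first pair lay in tiles far higher in Kupffer-like cells, the next pair in tiles higher in endothelial-like cells, and the last in a tile open in all classes. The capitals in Gm40645 and Gm17745 mark the AP-1 word TGANTCA. The other 3 windows held none of the words.
Gm40645, chr10:51526214-51526513, minus strand: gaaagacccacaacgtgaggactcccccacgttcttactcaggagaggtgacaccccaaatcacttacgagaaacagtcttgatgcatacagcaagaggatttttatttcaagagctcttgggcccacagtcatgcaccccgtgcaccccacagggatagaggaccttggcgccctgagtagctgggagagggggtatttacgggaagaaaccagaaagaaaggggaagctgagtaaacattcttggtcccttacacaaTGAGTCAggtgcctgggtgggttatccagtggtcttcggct
Gm32990, chr13:110568462-110568761, plus strand: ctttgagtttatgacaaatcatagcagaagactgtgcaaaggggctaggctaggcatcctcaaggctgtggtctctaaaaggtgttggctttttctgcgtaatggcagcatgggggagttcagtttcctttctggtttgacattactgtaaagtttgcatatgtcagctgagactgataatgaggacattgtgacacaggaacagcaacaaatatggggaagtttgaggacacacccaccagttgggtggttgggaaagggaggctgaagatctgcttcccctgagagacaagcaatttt
Gm13816, chr2:92741980-92742279, plus strand: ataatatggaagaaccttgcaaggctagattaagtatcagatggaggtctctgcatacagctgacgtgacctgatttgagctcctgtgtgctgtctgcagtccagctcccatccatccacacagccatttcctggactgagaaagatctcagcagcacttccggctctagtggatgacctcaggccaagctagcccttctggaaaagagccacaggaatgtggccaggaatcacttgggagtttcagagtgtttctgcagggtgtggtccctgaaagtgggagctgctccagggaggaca
Gm17745, chr10:93335961-93336260, plus strand: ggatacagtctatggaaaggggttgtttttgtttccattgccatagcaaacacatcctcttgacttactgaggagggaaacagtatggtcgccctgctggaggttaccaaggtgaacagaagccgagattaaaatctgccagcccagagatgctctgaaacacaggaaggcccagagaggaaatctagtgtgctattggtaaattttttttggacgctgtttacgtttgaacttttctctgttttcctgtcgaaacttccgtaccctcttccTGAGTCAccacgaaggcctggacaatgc
Chaserr, chr7:73558346-73558645, minus strand: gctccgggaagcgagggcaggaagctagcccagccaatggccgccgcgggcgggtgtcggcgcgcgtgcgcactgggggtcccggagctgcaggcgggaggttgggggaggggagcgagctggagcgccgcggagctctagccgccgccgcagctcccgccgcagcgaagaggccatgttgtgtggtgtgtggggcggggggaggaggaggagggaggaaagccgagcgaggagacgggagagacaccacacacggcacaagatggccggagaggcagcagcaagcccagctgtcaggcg

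The tile of the Gm40645 start, 29.4 kb from Lilrb4a, an inhibitory receptor gene of myeloid cells, held 53 fragments of Kupffer-like cells in library 1 and 50 in library 2, against 1 and 0 of endothelial-like cells. The Gm32990 tile, 167 kb from Plk2, held 148 and 141 fragments of Kupffer-like and 3 and 2 of endothelial-like cells. The order was the other way in the tile of Gm13816, 127 kb from Chst1, with 4 and 11 fragments of Kupffer-like against 78 and 62 of endothelial-like cells. In the Gm17745 tile, 24.8 kb from the ETS-factor gene Elk3, the counts were 32 and 3 against 87 and 55. The tile of Chaserr, a lncRNA beside Chd2, held 366 and 366 fragments of Kupffer-like cells (63.5 and 60.7 CPM) and 118 and 141 of endothelial-like cells (67.6 and 82.5 CPM). Its level was thus close to equal in the classes, and stellate or fibroblast-like cells had 67.6 and 57.0 CPM.

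The words were searched, after seeing the data, on both strands of the 502 windows and of 11547 windows of all lncRNAs. The PU.1 word GAGGAAGT was in 7.97% of the 502 windows and in 3.32% of all lncRNA windows. For the ETS word CAGGAAGT, which cannot share a position with it, the shares were 6.18% and 3.51%. The CTCF word was in 5.38% against 2.59%, and the AP-1 word in 12.4% against 9.24%. The MEF2 word was in 0.996% against 0.199%, which rests on 5 windows. The GATA word AGATAAG (3.39% against 3.78%), the IRF word (4.18% against 3.62%), the MAF word TGCTGAC (4.98% against 5.31%), the TEAD word ACATTCCA (1.2% against 1.71%), the C/EBP word TTGCGCAA (0.199% against 0.113%) and the E-box CACGTGAC (1.59% against 1.17%) had shares closer to each other. The LXR word was in 0 of the 502 windows and in 0.0433% of all lncRNA windows. A word is a run of letters and not a bound site, and the windows are an annotated subset of the tiles.

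Distal open tiles also lay at microRNA genes, whose mature RNAs act through the seed, bases 2 to 8, given here in capitals. RefSeq's hairpins lay inside a tile or within 1 kb of it at 13 of 1005 loci. The following mature sequences belong to hairpins whose tiles are described next.
mmu-let-7c-5p: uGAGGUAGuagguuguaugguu
mmu-let-7b-5p: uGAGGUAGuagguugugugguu
mmu-miR-6367: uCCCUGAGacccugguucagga
mmu-miR-8096: gGGCACGGuagcugaagagu
mmu-miR-17-5p: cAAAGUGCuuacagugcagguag

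The let-7 pair shares the seed GAGGUAG, and both hairpins lie at 1 tile, chr15:85706001-85707000, 27.9 kb from Ppara. That tile, with 51 fragments from 43 cells, passed the minimum narrowly and held 2 and 6 fragments of Kupffer-like cells (0.347 and 0.994 CPM), 10 and 11 of endothelial-like cells (5.73 and 6.44 CPM) and 12 and 5 of stellate or fibroblast-like cells (15.3 and 8.14 CPM). The tile over the hairpin of miR-6367, chr16:91527001-91528000, 16.5 kb from the interferon receptor gene Ifnar1, went the other way, with 95 and 52 fragments of Kupffer-like cells against 1 and 2 of endothelial-like cells. The tile at miR-8096, chr1:85751001-85752000, held 99 and 74 against 4 and 3. The tile beside the miR-17 cluster, chr14:115042001-115043000, 671 bp from the miR-17 hairpin, was open in every class compared, at 13.5 and 14.6 CPM in Kupffer-like, 26.9 and 19.3 in endothelial-like and 21.7 and 17.9 in stellate or fibroblast-like cells.

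Distal open tiles were small and mostly single. A tile held a median of 87.0 fragments (quartiles 64.0 and 138) from a median of 73.0 cells, and the tile with the most held 7321. Just inside the threshold, 1183 tiles held 50 to 54 fragments, with a median of 45 cells. Just outside it, 1414 distal tiles of at least 30 cells held 45 to 49, with a median of 41 cells. The tiles formed 9271 runs of adjacent tiles, and 7666 tiles (67.7%) had no neighbour that passed. A further 1291 runs were pairs and 314 were of 3 or more.

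Openness fell with distance from genes. Tiles lay at a median of 35.6 kb from the nearest protein-coding gene (quartiles 18.9 and 82.5 kb), while all distal tiles lay at a median of 138 kb. Of the distal tiles 10 to 20 kb from a gene, 2.38% passed, against 1.82% at 20 to 50 kb, 1.14% at 50 to 100 kb, 0.465% at 100 to 500 kb and 0.0565% farther away. Within 10 kb of a gene start or end 6.21% of tiles passed the minimums, and inside genes farther from the ends 1.92%. The tile farthest from a gene, chr5:59996001-59997000, lay 1812 kb upstream of G6pd2 and held 37 and 40 fragments of Kupffer-like against 2 and 1 of endothelial-like cells. A further tile, chr2:46871001-46872000, lay 1754 kb upstream of Zeb2, a transcription factor gene of macrophages, and held 44 and 15 against 1 and 1. Next in distance was chr2:47088001-47089000, 1725 kb upstream of Acvr2a, with 30 and 5 fragments of Kupffer-like against 4 and 0 of endothelial-like cells. All 3 tiles had too few fragments in these classes for a call.

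Long runs of adjacent tiles lay at immune loci. A run of 10 at chr6:129229001-129239000, 28.3 kb from Cd69, an early activation antigen of lymphocytes, held 50 to 296 fragments per tile, and none of its 6 tiles tested in library 1 was higher in Kupffer-like cells. A run of 7 at chr9:123923001-123930000 lay 32.1 kb from Ccr1, a chemokine receptor gene of myeloid cells. Runs of 7 also lay near Ccny, Lrrc28 and Ly6e.

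Fragment lengths, which the rule did not use, were close to those of the other open tiles. Of the fragments in distal open tiles, 71.4% (71.3 to 71.5%) in library 1 and 70.7% (70.6 to 70.8%) in library 2 were shorter than the DNA wrapped around a nucleosome. Open tiles near gene ends had 71.3% and 70.4%, and those inside genes 71.6% and 70.9%. Distal tiles that did not pass had 45.6% and 56.1%.

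Noncoding genes were more frequent among the tiles than among distal sequence at large. A gene other than a protein-coding one overlapped 29.2% of the tiles, against 15.1% of all distal tiles. For lncRNA genes the shares were 26.9% and 12.3%, and the tiles also lay nearer to genes than distal tiles at large. Transfer RNA genes, short and transcribed in every cell by RNA polymerase III, lay in 49 of the tiles, and 26.5% of the distal tiles with a transfer RNA gene passed the minimums. When noncoding genes are counted too, 79.9% of the tiles had one of them as their nearest annotated gene.

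The most fragments came from a stretch of ribosomal sequence. The tile with 7321 fragments, chr17:39844001-39845000, belongs to a run of 6 at chr17:39843001-39849000 that held 35603 fragments, 2.55% of all fragments in distal open tiles. RefSeq places the pseudogene Rn18s-rs5 in this stretch, and ribosomal RNA genes exist in many copies. A single cell gave up to 171 fragments to a tile of the run. The run had 626 and 2368 CPM in Kupffer-like cells, 526 and 1591 in endothelial-like cells and 6588 in the 24 hepatocyte-like cells of library 1. The tile that was second, chr11:109011001-109012000, 60.2 kb downstream of Axin2, held 1938 fragments with up to 58 of 1 cell. The third, chr2:98666001-98667000, lay 1034 kb downstream of Lrrc4c and held 1710. Next came the start of the lncRNA D130051D11Rik (chr15:85634001-85635000, 1440 fragments) and a tile 76.3 kb from Chd2 (chr7:73618001-73619000, 1411). The last pair had 56.2 to 95.4 CPM in Kupffer-like and endothelial-like cells of both libraries, and no single cell gave either of them more than 10 fragments.

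Kupffer-like and endothelial-like cells used different distal tiles. For each tile the log2 ratio of the level in Kupffer-like over endothelial-like cells of the same library was taken relative to the median of all open tiles, and a tile was called when it lay at least 2-fold from that median with an interval that excluded it. At least 50 fragments in the 2 classes together were required, which 4629 distal tiles had in library 1 and 2114 in library 2. In library 1, 2684 (58.0%) were higher in Kupffer-like cells, where 34.1% of all open tiles were, and 637 (13.8%) were lower, where 12.0% of all open tiles were. In library 2, 1065 (50.4%) were higher, against 25.2% of all open tiles, and 336 (15.9%) were lower, against 9.99%. With no minimum fold the order of the lower calls turned, with 16.9% of distal tiles against 24.8% of all open tiles in library 1, and in library 2 the shares were 19.3% and 19.6%. The median relative ratio of the distal tiles was 1.57 and 1.04. Tiles near gene ends had medians of -0.25 and -0.11, with 22% and 15.6% higher, and open tiles inside genes had 54.7% and 52.4% higher. Tiles near gene ends were 18252 of the 28210 open tiles tested in library 1 and 11879 of 16262 in library 2. They largely set the median, so their place near it is no result. Relative to that median, the distal tiles and the tiles inside genes spread far to the Kupffer side. Kupffer-like cells gave more fragments than endothelial-like cells in both libraries, so a tile open in Kupffer-like cells alone reached the minimums more easily than one open in endothelial-like cells alone, and the counts in the 2 directions do not compare the classes.

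**Figure D1:**
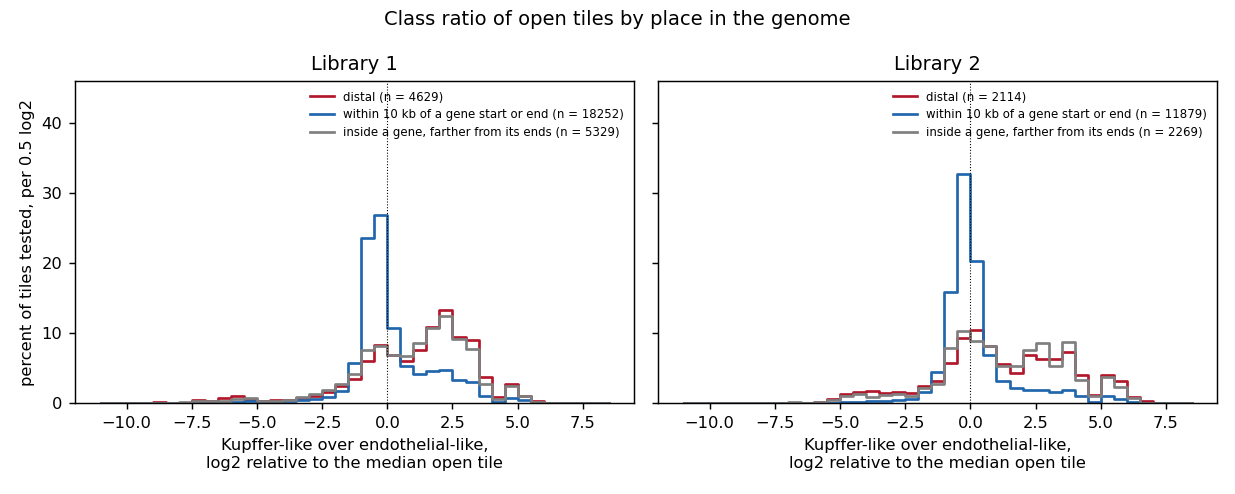
Distribution of the Kupffer-like over endothelial-like log2 ratio, relative to the median open tile (x axis), as percent of the tiles tested per 0.5 log2 (y axis), for distal tiles, tiles within 10 kb of a gene start or end and tiles inside genes, in library 1 (left) and library 2 (right). Tiles near gene ends peak near 0, which they largely set as most of the tiles tested. The distal tiles extend to the right, with medians of 1.57 and 1.04.

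Within ranges of fragments per tile, the share of distal tiles higher in Kupffer-like cells was above that of tiles near gene ends, except in the lowest range of library 2. Among tiles of at least 100 and under 200 fragments, 59.5% of 2613 distal tiles and 34.9% of 6853 tiles near gene ends were higher in Kupffer-like cells of library 1. Among tiles of at least 200 and under 400 the shares were 55.2% and 16.1%, and from 400 fragments on 20.9% and 2.85%. In library 2 the shares were 51.3% and 34.0%, 55.5% and 18.6%, and 23.2% and 4.19% in these ranges. Open tiles inside genes had 55.8%, 50.7% and 27.7% in library 1 and 57.1%, 53.9% and 28.9% in library 2. The excess over tiles near gene ends was thus not particular to distal tiles. In the lowest range of library 2, under 100 fragments, 70.3% of 37 distal tiles and 78.1% of 32 tiles near gene ends were higher, the other way round. The distal tiles with the most fragments were also the least unequal, with a median of -0.27 in library 1 and 0.14 in library 2 from 400 fragments on. The ranges of levels were chosen after seeing the data.

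**Figure D2:**
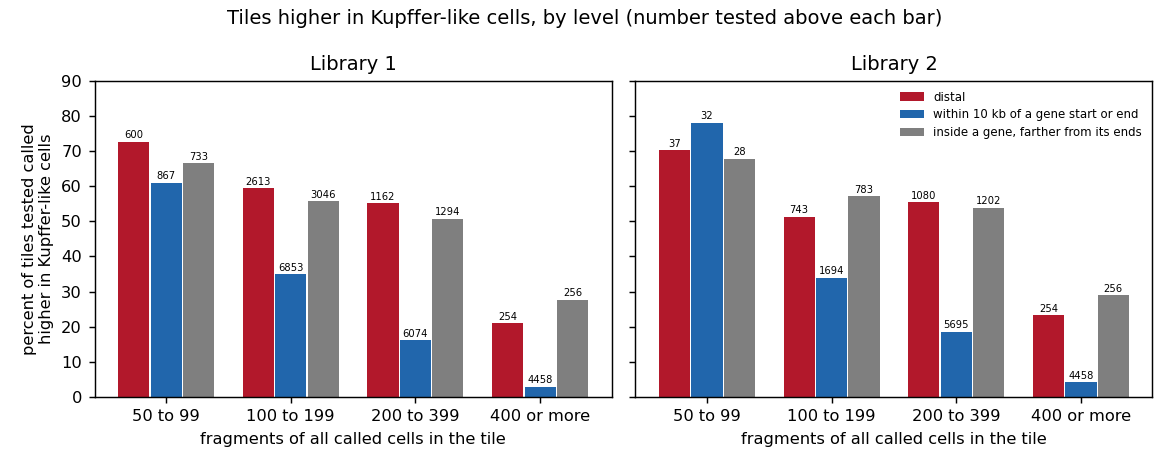
Percent of tested tiles called higher in Kupffer-like than in endothelial-like cells (y axis) by the fragments of all called cells in the tile (x axis), for the 3 places in the genome, with the number tested above each bar. Distal tiles exceed tiles near gene ends from 100 fragments on in both libraries, for example 55.2% against 16.1% from 200 to under 400 fragments in library 1. Tiles inside genes exceed them too, with 50.7% in that range of library 1.

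The calls were alike in the libraries. Of 1917 distal tiles tested in both, 865 were higher in Kupffer-like cells of both, which is 90.8% of those higher in library 1 and 88.5% of those higher in library 2. A further 222 were lower in both, or 77.6% and 82.8%. Over all 15641 open tiles tested in both, 3153 were higher in both, 91.4% and 82.2% of those higher in each library, and the shares for lower tiles were 57.5% and 66.7%. A single tile, near Plb1, was called in opposite directions. Across these tiles the ratios of the libraries had a Pearson correlation of 0.86, given as a description, since the tiles share the cells and depth of each library. The 865 tiles lay at a median of 39.2 kb from the nearest gene and the 222 at 36.9 kb, while the 521 called neither way in both lay at 31.0 kb. An lncRNA gene overlapped 26.6% and 28.4% of the first 2 sets and 38.8% of the 521.

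**Figure D3:**
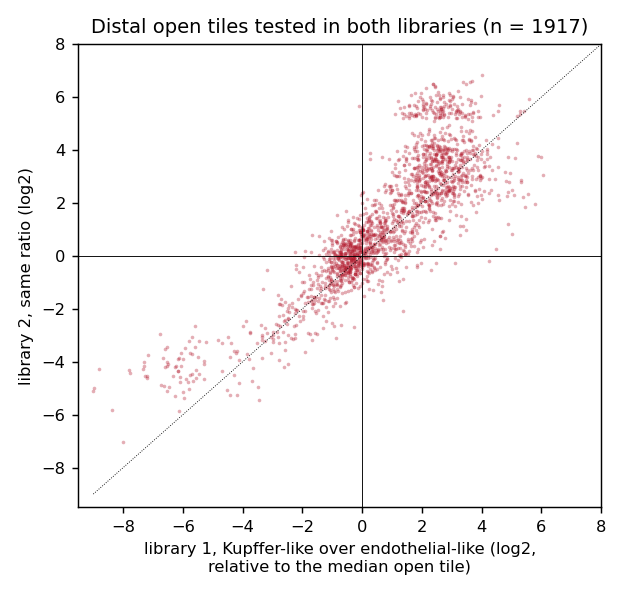
Kupffer-like over endothelial-like log2 ratio relative to the median open tile in library 1 (x axis) and library 2 (y axis), 1 point for each of the 1917 distal tiles tested in both. Points lie along the dotted line of equal ratios, with 865 tiles high and 222 low in both libraries; the band near the top comes from tiles with no or few endothelial fragments in library 2.

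Higher shares of Kupffer-like tiles were found farther from genes. In library 1, 54.3% of the tiles 10 to 20 kb from a gene were higher in Kupffer-like cells, 56.7% at 20 to 50 kb, 57.0% at 50 to 100 kb, 65.3% at 100 to 500 kb and 79.6% of the 54 beyond 500 kb. In library 2 the shares were 45.7%, 49.9%, 53.2%, 54.5% and 63.6%, the last of 22 tiles. Tiles over transfer RNA genes stood at the other end, with 2 of 31 higher and 1 lower in library 1 and 3 and 1 of 31 in library 2. Tiles with an lncRNA start came between, with 67 of 209 (32.1%) higher and 35 (16.7%) lower in library 1, and 29 (22%) and 21 (15.9%) of 132 in library 2. Over all open tiles 34.1% and 25.2% were higher. The sets of this paragraph were not matched for fragments per tile. In library 1, 72.7% of distal tiles under 100 fragments and 20.9% of those from 400 on were higher. The part of level in the order by distance was not tested.

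The tiles with the highest mean ratio over the libraries lay near genes of unrelated function. The first, chr13:110569001-110570000, 168 kb downstream of the stress-induced kinase gene Plk2 and next to the Gm32990 start shown above, held 98 fragments in Kupffer-like cells of library 1 (17 CPM) and 84 in library 2 (13.9 CPM), and 0 in endothelial-like cells of both. With endothelial-like cells set to a floor of 3 fragments in each library, the relative log2 ratio was 3.0 and 3.35. The lower limits of the intervals were 2.68 and 3.02. The Gpr141/F7 clusters had 12.5 and 16.4 CPM there, close to the Kupffer-like level. Likewise 0 endothelial-like fragments were found in the tiles near Cep44, a centrosome gene (chr8:56439001-56440000, 86 and 61 Kupffer-like fragments, 14.9 and 10.1 CPM), Slc46a3, a lysosomal transporter gene (chr5:147911001-147912000, 78 and 60), Adrb1, the gene of the beta-1 adrenergic receptor (chr19:56744001-56745000, 78 and 56), and Cenpc1, a centromere gene (chr5:85915001-85916000, 74 and 53). The Cep44 tile was not open in Kupffer-like cells alone, since the Gpr141/F7 cluster of library 1 had 16.7 CPM and stellate or fibroblast-like cells of library 2 had 9.77 CPM. The tiles near Adrb1 and Cenpc1 also held at most 2 fragments in a Gpr141/F7 cluster, at most 1.39 CPM. The tile 30.6 kb upstream of Cd163, the receptor for haptoglobin-bound hemoglobin, was the most open of the 6, with 293 and 157 fragments (50.8 and 26 CPM) of Kupffer-like against 4 and 0 (2.29 and 0 CPM) of endothelial-like cells, at chr6:124273001-124274000. Its relative log2 ratio was 4.00 (2.79 to 6.05) in library 1. In library 2 it was 4.25 with the floor of 3 fragments, and the lower limit of the interval was 3.94.

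The tiles on the endothelial side had higher levels in their class than most of these had in theirs, from 29.3 to 69.9 CPM. Endothelial-like cells gave fewer fragments in all, 1745126 and 1708646 against 5764186 and 6033519 of Kupffer-like cells. The minimum of 50 fragments in each library thus asked for a higher CPM of a tile open in endothelial-like cells alone. This contrast in level is no result about the classes. A tile 12.8 kb from Sftpd, a collectin gene, held 122 and 92 fragments of endothelial-like cells (69.9 and 53.8 CPM) against 1 and 4 of Kupffer-like cells, at chr14:41198001-41199000, with relative log2 ratios of -8.38 (-14.27 to -6.45) and -5.82 (-7.89 to -4.58). A tile 214 kb from Sema6a, a guidance molecule gene, held 95 and 71 against 1 and 1 (chr18:47585001-47586000). Next were tiles near Dusp10, a phosphatase gene of stress kinases (chr1:184276001-184277000, 63 and 80 endothelial-like against 0 and 6 Kupffer-like fragments), Ets1, an ETS factor gene (chr9:32901001-32902000, 61 and 63 against 0 and 5), Gli2, a Hedgehog effector gene (chr1:119209001-119210000, 55 and 52 against 0 and 7), and Xdh, the xanthine dehydrogenase gene (chr17:73962001-73963000, 79 and 50 against 1 and 6). In each of these tiles library 2 had more Kupffer-like fragments than library 1, except at Sema6a, where each library had 1. The Xdh tile was shared with stellate or fibroblast-like cells, at 19.1 and 11.4 CPM, while the tiles near Sema6a, Dusp10, Ets1 and Gli2 held 0 fragments of that class.

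Of the tiles, 136 held at least 50 fragments of stellate or fibroblast-like cells and 412 of the Gpr141/F7 clusters. The 3 most specific to the stellate or fibroblast-like class lay 211 kb downstream of the cadherin gene Cdh26 (chr2:178698001-178699000), downstream of the ETS factor gene Ets2 (chr16:95741001-95742000) and 58.7 kb upstream of Lmo4, a LIM-domain cofactor gene (chr3:144264001-144265000). They held 37 and 15, 28 and 43, and 38 and 14 fragments of the class, and at most 2 fragments of Kupffer-like cells and 1 of endothelial-like cells in a library. The Lmo4 tile was also open in the hepatocyte-like cells of library 1, with 9 fragments (21.2 CPM), near the 22.8 CPM of stellate or fibroblast-like cells of library 2. The Gpr141/F7 clusters led at tiles near S100a11, a calcium-binding protein gene (chr3:93506001-93507000, 19 and 53 fragments against 12 and 3 of the far more numerous Kupffer-like cells), Nxt1 (chr2:148579001-148580000, 15 and 42 against 9 and 8) and Smad3, an effector gene of TGF-beta (chr9:63850001-63851000, 23 and 44 against 5 and 16). Endothelial-like cells had at most 1 fragment in these 3, and erythroid-like cells of library 2 had 15.8 CPM near S100a11 and 11.3 CPM near Nxt1. Ranked on the class ratio, the tiles of this and the preceding paragraphs are a description of the extremes.

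**Figure D4:**
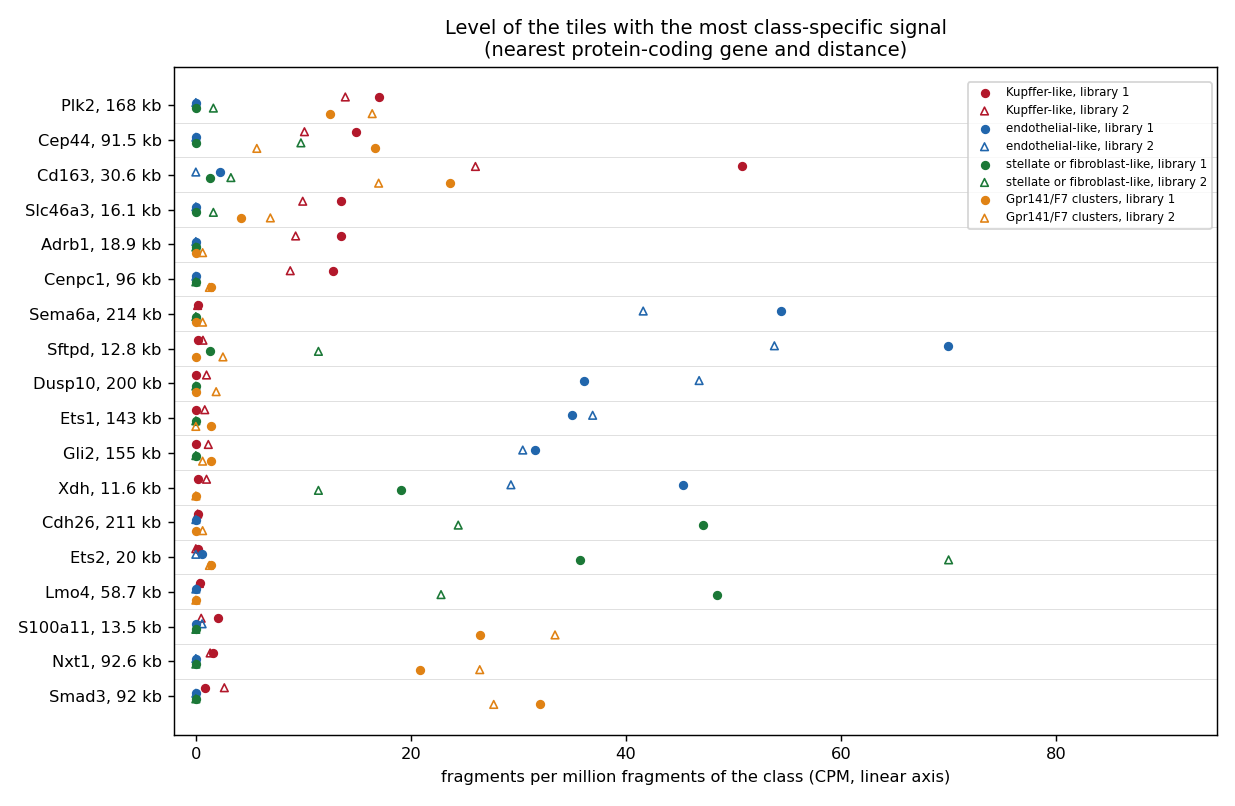
Level (CPM, fragments scaled to the same total for every class, linear x axis) of the tiles with the most class-specific signal, in 4 classes of library 1 (filled circles) and library 2 (open triangles), each named by its nearest protein-coding gene and the distance. The Gpr141/F7 clusters share several Kupffer-like tiles, such as that near Plk2 with 12.5 and 16.4 CPM, and stellate or fibroblast-like cells share the Xdh tile and, in library 2, the Cep44 tile (9.77 CPM against 10.1).

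The tiles had 3653 nearest genes, of which 1535 had a single tile and 181 had 10 or more. Gm826 had the most, 42 tiles over chr2:159587001-160277000, and all 28 tested in library 1 and all 9 tested in library 2 were higher in Kupffer-like cells. Id2, an inhibitor of helix-loop-helix factors, had 36, of which 10 of 12 tested in library 1 were higher and 1 was lower. Tomm20, a mitochondrial import gene, had 34, with 10 of 19 higher and 1 lower. Zeb2 had 31, with 14 of 15 tested in library 1 and 7 of 8 in library 2 higher, and Cebpb, a C/EBP factor gene of myeloid cells, had 28, with 11 of 16 and 7 of 12 higher. Of the 9 tiles of Ets1, the 4 tested in library 1 and the 3 tested in library 2 were all lower. Over all features tested, 58.0% of distal and 34.1% of all open tiles were higher in library 1 and 50.4% and 25.2% in library 2, so that the 10 of 19 of Tomm20 were below the distal share, and nothing particular to a gene is read from these counts.

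A tile and its nearest gene were weakly related. Over 4251 tiles whose nearest gene (body with 2 kb on both sides) had enough fragments, the ratio of the tile and that of the gene had a Pearson correlation of 0.29 in library 1, and of 0.22 over 1963 tiles in library 2, both across tiles that share genes and libraries. In library 1 the value was 0.30 at 10 to 20 kb, 0.36 at 20 to 50 kb, 0.28 at 50 to 100 kb and 0.22 beyond 100 kb. Of the 2475 Kupffer-high tiles, 19.3% had a nearest gene that was Kupffer-high and 6.22% one that was Kupffer-low. Of the 594 Kupffer-low tiles, the shares were 6.73% and 23.9%. Most tiles of either kind thus had a nearest gene that was called neither way.

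The fixed lists of nearest genes were counted in the same way, to be read beside 58.0% of distal and 34.1% of all open tiles higher in library 1 and 50.4% and 25.2% in library 2. Of 28 macrophage factor genes, 19 had at least 1 tile, 205 tiles in all, and 64 of 91 tested in library 1 were higher in Kupffer-like cells, 8 lower (median 1.88, against 1.57 over all distal open tiles). In library 2 the counts were 32 and 4 of 47 (median 2.93 against 1.04). Of 22 endothelial factor genes, 15 had 51 tiles, with 13 of 22 lower and 2 higher in library 1 (median -1.52), and 8 lower and 6 higher of 16 in library 2 (median -0.93). Of the 18 heme and iron genes, 7 had 26 tiles, with 9 of 11 higher and 1 lower in library 1, and 6 of 7 higher and 1 lower in library 2. Of the 19 engulfment and scavenger receptor genes, 9 had 28 tiles, with 14 of 16 higher and 1 lower in library 1, and 9 of 9 higher in library 2. Of the 20 inflammation genes, 17 had 71 tiles, with 17 of 30 higher and 5 lower in library 1, and 4 of 17 higher and 3 lower in library 2 (median 0.26), counts near the distal share in library 1 and near the share of all open tiles in library 2. The liver angiocrine list (7 of 14 genes, 32 tiles) was mixed, with 4 higher and 5 lower of 15 in library 1 and 2 higher and 0 lower of 5 in library 2. The stellate and mesenchymal list (6 of 15 genes, 22 tiles) had 5 and 2 tiles tested, and the MHC class II list had 1 tile, near Cd74, with too few fragments to be tested. Several genes of the lists are also markers that named the classes.

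Red cell and iron genes had tiles in Kupffer-like cells. The tile 26.1 kb from Slc40a1, the iron exporter ferroportin, held 214 and 145 fragments of Kupffer-like cells (37.1 and 24.0 CPM) against 8 and 4 of endothelial-like cells, at chr1:45881001-45882000, with relative log2 ratios of 2.63 (1.71 to 3.94) and 3.56 (2.33 to 5.62). The tile 25.6 kb upstream of Fth1, the ferritin heavy chain gene (chr19:9954001-9955000), held 88 and 122 (15.3 and 20.2 CPM) against 3 and 8. Stellate or fibroblast-like cells were higher still in library 1, at 35.7 CPM, and near the Kupffer-like level in library 2, at 19.5 CPM. The Gpr141/F7 clusters were above the Kupffer-like level in both libraries, at 22.2 and 26.4 CPM. The tile 37.0 kb upstream of Bach1, the heme-sensing repressor gene, was on the endothelial side, at 26.9 and 15.9 CPM in Kupffer-like and 65.3 and 65.5 CPM in endothelial-like cells (chr16:87661001-87662000, -1.59 and -1.68). The exception within the list was thus a gene that is also on the list of macrophage factors.

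Tiles near Cd5l, Clec4f, Adgre1 and Marco were on the Kupffer side as well. These genes are among the markers that named the Kupffer-like class, so this direction is no independent result. The tile 22.9 kb upstream of Cd5l, a scavenger protein gene (chr3:87334001-87335000), held 158 and 124 fragments of Kupffer-like against 3 and 0 of endothelial-like cells. The tile 11.5 kb downstream of Clec4f (chr6:83632001-83633000) held 145 and 86 against 6 and 2, and, unlike the former, almost none of the Gpr141/F7 clusters (0 and 1, against 10 and 17 at Cd5l). The tile 10.6 kb from Adgre1 (chr17:57347001-57348000) held 114 and 67 against 4 and 0, and its level in the Gpr141/F7 clusters, 22.2 and 17.6 CPM, was near that in Kupffer-like cells, 19.8 and 11.1 CPM. Marco, a scavenger receptor gene, had 8 tiles within 27.0 kb, of which all 6 tested in library 1 and all 5 tested in library 2 were higher in Kupffer-like cells. Over all distal tiles tested 58.0% and 50.4% were higher, and over all open tiles 34.1% and 25.2%.

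Among inflammation genes, the tile 46.6 kb upstream of Tnfaip3, the inhibitor A20 of NF-kB signalling, held 290 and 240 fragments of Kupffer-like cells (50.3 and 39.8 CPM) against 12 and 17 (6.88 and 9.95 CPM), at chr10:19062001-19063000. The tile 64.1 kb upstream of the cytokine gene Il6 (chr5:29948001-29949000) held 211 and 71 against 8 and 1. Tiles near Tlr2 (chr3:83863001-83864000) and Nfkbia (chr12:55474001-55475000) differed less, with relative log2 ratios of 0.57 and 0.42 and of 0.77 and 0.26, and were called neither way. Of the factor genes, Klf4 (119 kb upstream, chr4:55651001-55652000, -1.10 and -0.91) and Maf (52.3 kb, chr8:115650001-115651000, -1.62 and -1.57) had their fullest tile on the endothelial side although both are on the macrophage list; that of Klf4 in library 2 was less than 2-fold from the median. The fullest tile of Cebpb, 86.6 kb downstream (chr2:167777001-167778000), was at 0.58 and -0.42 and was called neither way.

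Endothelial factor genes were mixed too. The fullest tile of Ets1, 148 kb away (chr9:32906001-32907000), held 126 and 111 fragments of endothelial-like cells (72.2 and 65.0 CPM) against 9 and 13 (1.56 and 2.15 CPM) of Kupffer-like cells. The tile 23.1 kb upstream of Klf2, a factor induced by blood flow, was about 2-fold below the median, at -1.08 and -1.05 (chr8:72295001-72296000), and was under the 2-fold threshold with at most 2 fragments per cell, at -0.96 and -0.85. The fullest tiles near Ets2 (chr16:95827001-95828000, 2.10 and 1.42) and Hhex (chr19:37482001-37483000, 0.94 and 2.63) were on the Kupffer side, and the Hhex tile passed the 2-fold threshold in library 2 alone. The tile 82.5 kb upstream of the growth factor gene Hgf was highest in stellate or fibroblast-like cells, at 63.8 and 42.3 CPM against 16.4 to 28.7 CPM in Kupffer-like cells, endothelial-like cells and the Gpr141/F7 clusters (chr5:16470001-16471000). That 56.2 kb from Bmp2, an angiocrine signal gene, was lower in Kupffer-like cells of library 1 (chr2:133495001-133496000, -1.48), and in library 2, at -0.74, it was under the 2-fold threshold.

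Calls between the libraries were more frequent among distal tiles than among all open tiles at the 2-fold threshold. In Kupffer-like cells, relative to the median of all open tiles, 394 of 6238 distal tiles tested (6.32%) were higher in library 2, where 4.18% of all open tiles were, and 639 (10.2%) were lower, where 7.09% were. With each cell counted at most 2 times per tile, 343 of 6093 (5.63%, against 3.57%) were higher and 569 (9.34%, against 6.37%) were lower. In endothelial-like cells, 87 of 1144 (7.60%, against 2.33%) were higher and 124 (10.8%, against 5.27%) were lower, and with at most 2 per cell 51 of 1065 (4.79%, against 1.59%) and 98 (9.20%, against 4.31%). Of the open tiles inside genes, by all fragments, 4.88% were higher and 9.44% lower in Kupffer-like cells of library 2. In endothelial-like cells 3.85% of them were higher and 13.5% lower. Calls above the shares of all open tiles were thus not particular to distal tiles. The median open tile was itself at -0.82 (log2) in library 2 against library 1 in Kupffer-like cells and at -0.16 in endothelial-like cells before centring, beside a lower share of fragments in peaks in library 2. Without centring, 110 Kupffer-like tiles were higher in library 2 and 2889 lower. Library, animal and genotype cannot be told apart, and the part of the share in peaks in these calls was not tested.

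With no minimum fold the order of the higher calls turned in Kupffer-like cells, with 14.8% of distal tiles and 18.5% of all open tiles higher in library 2.

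Level moved with these calls. Of the distal tiles under 100 fragments, 7.51% were higher and 14.6% lower in Kupffer-like cells of library 2 with the limit of 2 per cell, while of the 254 with 400 or more, 8.27% were higher and 0.394% lower. Of tiles near gene ends, 5.03% were higher and 13% lower in the former range, and 0.987% and 0.0673% in the latter. The median relative ratio went from -0.25 in the former to 0.31 in the latter, and in tiles near gene ends from -0.24 to 0.32. Of the 865 tiles higher in Kupffer-like cells of both libraries, 28 were higher and 1 was lower in library 2, and of the 521 called neither way by class, 32 and 1. Over all distal open tiles the counts were 343 and 569 of 6093. Both sets needed at least 50 fragments of the 2 classes in each library. A tile low in library 2 reached this less easily, so the few lower calls are no result about these sets.

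The tiles with the most unequal levels in Kupffer-like cells were nearly closed in one of the libraries. A tile 13.3 kb upstream of Kbtbd12 (chr6:88641001-88642000) held 1 fragment in library 1 and 60 from 44 cells in library 2, and with the limit of 2 per cell its relative log2 ratio was 5.99 (4.03 to 11.89). Next were tiles near Ccny, a cyclin gene (chr18:9493001-9494000, 2 against 78), Lrp12, a gene of the LDL receptor family (chr15:39968001-39969000, 3 against 93), and Gm52006 (chr12:80135001-80136000, 2 against 54). The tile 46.7 kb upstream of Atf3, a stress-induced repressor gene, held 3 fragments from 3 cells in library 1 and 71 from 43 cells in library 2 (chr1:191230001-191231000, 4.85, 3.44 to 7.38). The tile 22.2 kb downstream of Dusp5, a phosphatase gene of ERK, held 7 and 67 (chr19:53564001-53565000, 3.87, 2.83 to 5.33). Endothelial-like cells had 34 and 23 fragments at the Dusp5 tile, so that its class ratio was -4.23 in library 1, from too few fragments for a call, and 0.06 in library 2. Both Kupffer-like clusters of library 2 carried these signals, at 10.4 and 8.69 CPM near Kbtbd12, 12.8 and 13.3 near Ccny, 15.1 and 16.2 near Lrp12, 10.9 and 4.06 near Gm52006, 13.7 and 6.95 near Atf3, and 12.5 and 7.53 near Dusp5. Both clusters of library 1 had at most 1.24 CPM in the 6 tiles.

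In the other direction, a tile 13.6 kb downstream of Cfap58 (chr19:48049001-48050000) held 111 fragments from 76 cells in library 1 and 3 in library 2, and its relative log2 ratio was -4.02 (-6.54 to -2.65). The tile 281 kb downstream of Cxcl12, a chemokine gene (chr6:117462001-117463000), held 64 and 4, and that 11.4 kb from Gbp4, an interferon-induced GTPase gene (chr5:105151001-105152000), 52 and 4. Tiles near Pds5a, a cohesin regulator gene (chr5:65717001-65718000, 49 and 4), Kcnrg (chr14:61799001-61800000, 65 and 6) and Ddx6, an RNA helicase gene (chr9:44571001-44572000, 55 and 5), followed, at -2.59 to -2.50. Endothelial-like cells held 11 and 10 fragments at the Pds5a tile. The 4 or fewer fragments on one side of several of these ratios leave wide intervals. Ranked on the library ratio, the tiles of this and the preceding paragraph are a description of the extremes.

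**Figure D5:**
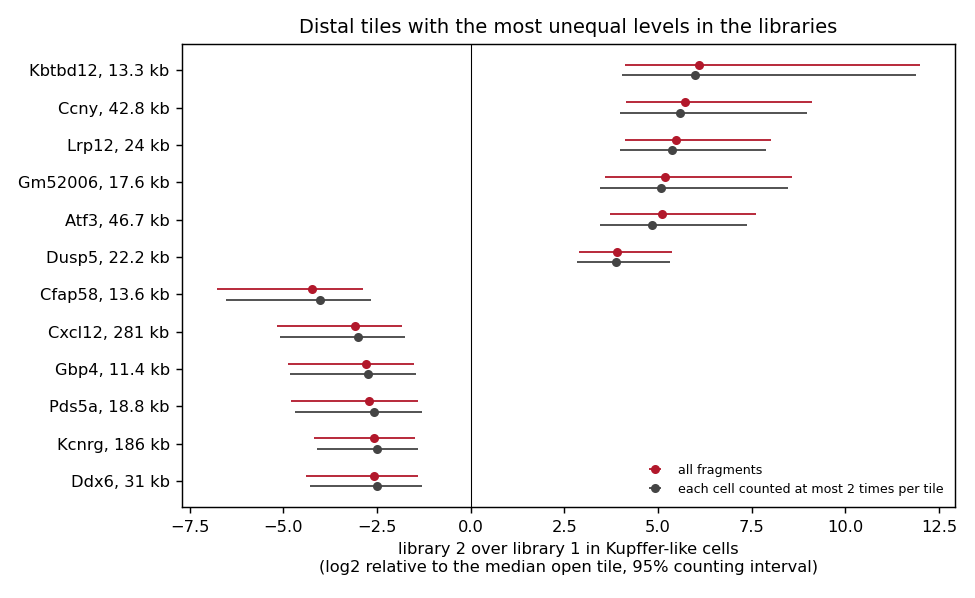
Library 2 over library 1 log2 ratio in Kupffer-like cells relative to the median open tile (x axis), with 95% counting intervals, for the 6 distal tiles highest in each library, from all fragments and with each cell counted at most 2 times per tile. The tiles were ranked on this ratio with the limit of 2 per cell, so intervals on one side of 0 follow from the choice. The limit moves the values little, for example from 5.11 to 4.85 near Atf3.

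In endothelial-like cells the most unequal tiles, ranked in the same way, were other ones. A tile 14.9 kb upstream of Fgf23, the phosphate hormone gene (chr6:127057001-127058000), held 1 fragment in library 1 and 62 from 38 cells in library 2 (5.33, 3.35 to 11.23). Tiles 35.7 kb upstream of Plb1 (chr5:32196001-32197000, 6 and 50) and 22.4 kb upstream of Bpgm, a bisphosphoglycerate mutase gene (chr6:34453001-34454000, 9 and 52), were also higher in library 2. Higher in library 1 were tiles 19.8 kb upstream of Rnase10 (chr14:50987001-50988000, 59 and 5), 581 kb upstream of Klf4 (chr4:56113001-56114000, 58 and 5) and 192 kb upstream of Trib2, a pseudokinase gene (chr12:16009001-16010000, 49 and 8). Stellate or fibroblast-like cells, in which this was not compared for lack of cells, held 32 and 10 fragments at the Rnase10 tile and 27 and 16 at the Klf4 tile.

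Tiles of the fixed lists were also compared between the libraries, in Kupffer-like cells with the limit of 2 per cell. The counts were 6 higher and 10 lower of 126 for macrophage factors, 2 and 4 of 42 for inflammation, 1 and 0 of 15 for heme and iron, and 3 and 2 of 18 for engulfment and scavenger receptors, beside 343 and 569 of 6093 over all distal open tiles. In endothelial-like cells, 0 were higher and 5 lower of 16 for endothelial factors, beside 9.20% lower over all distal tiles. The single heme and iron tile was that upstream of Fth1, at 1.14 (0.72 to 1.58). The 3 receptor tiles belonged to Marco, whose tile 27.0 kb upstream (chr1:120532001-120533000) held 96 and 132 fragments of Kupffer-like cells, at 1.17 (0.77 to 1.59). Neither the Fth1 nor the Marco tile was called without centring, at 0.40 and 0.39, and with classes by marker fragments the Fth1 tile, at 0.67, was not called. The tiles near Slc40a1 and Cd163 were called neither way, at 0.17 (-0.17 to 0.50) and -0.25 (-0.57 to 0.06). The Il6 tile, at -0.77 (-1.20 to -0.36), was below the median but under the 2-fold threshold.

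The ribosomal run on chromosome 17 changed with the limit on single cells. In Kupffer-like cells its 6 tiles were at 2.64 to 2.85 in library 2 over library 1, and at 1.13 to 1.37 with the limit of 2 per cell. In endothelial-like cells the ranges were 1.63 to 2.04 and 0.67 to 0.94. In all, 28 distal open tiles had more than 10 fragments of a single cell, 12 of them more than 20, and 316 tiles held under 50 fragments when each cell counted at most 2 times.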

How the data were processed

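Single-nucleus ATAC-seq of 2 samples was deposited as 1 table of fragments and 1 table of barcodes. The authors deposited counts of read pairs per unique fragment (5.29 and 9.08 read pairs per fragment in libraries 1 and 2), and each unique fragment was counted once here by its midpoint. Per the submitters' processing notes, the build was GRCm38.p5 and the tools included Cell Ranger ATAC 1.2.0, Signac 0.2.4, Seurat and R 3.6.1, with no roles stated. Genes, start windows and miRNAs came from RefSeq's GRCm38.p6, which shares its primary coordinates with that build. All 11401694 and 21656110 fragments of libraries 1 and 2 were read.

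Called cells were kept from 1000 fragments in peaks, 15% in peaks and up to 5% blacklisted. They were clustered in each library (32732 bins of 5 kb, TF-IDF, 30 components of which the first was dropped, 20 neighbours, Leiden resolution 1.0, scikit-learn 1.9.0, leidenalg 0.10.2). Names came from 15 lists of 121 markers and needed a score of 0.25, a lead of 0.2 and 3 markers seen in 10% of cells. Cells resembling simulated doublets (30 and 26) were kept in the values given. Ratios carry exact conditional binomial intervals (scipy 1.17.1), and point values use counts plus 0.5. A fold against 0 uses a floor of 3 fragments per class and library. The calls were tested on simulated data. Named tiles were those with the most fragments, the farthest, the longest runs, the extremes of each comparison and the fullest tile beside a list gene, 1 per stretch of 5 kb, of which 1 run is not reported here. The miRNA and lncRNA tiles were chosen after their values were seen. The members and lists were chosen with earlier results of these data known. No genome sequence was used here, so words were searched in start windows and not in whole tiles. Alternatives are listed with their effects in the closing section.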

Additional observations from a re-analysis of the deposited data

Results flagged for a closer look

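Barcodes that were not called cells also left fragments in the distal open tiles, outside the values above. They gave 101521 fragments there in library 1, which is 5.30% (5.27 to 5.33%) of their fragments, and 199763 in library 2, or 2.11% (2.10 to 2.12%). Called cells had 8.01% and 5.24% of their fragments in the tiles.

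The tile 35.7 kb upstream of Plb1 (chr5:32196001-32197000) had class ratios of opposite direction in the libraries. Its Kupffer-like over endothelial-like relative log2 ratio was 1.35 (0.26 to 2.95) in library 1, from 67 and 6 fragments, and -2.09 (-2.79 to -1.43) in library 2, from 32 and 50. The difference between the libraries was not tested.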

How the results depend on the processing

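With 1 library per genotype the counts hold no replicate error. At least 100 fragments from 60 cells left 4658 tiles. Classes by marker fragments kept 72 and 72 Kupffer-like and 100 and 61 endothelial-like cells, and turned the split of library 1, with 133 higher and 224 lower of 685 tiles tested (library 2: 81 and 64 of 364). On these same 685 tiles the clusters gave 99 higher and 280 lower, and no tile was called in opposite directions. The 685 tiles held a median of 335 fragments, against 152 for the tiles tested with clusters. The part of this difference in the turn was not tested. Between libraries the marker classes gave 33 higher and 44 lower in Kupffer-like cells and 43 higher in endothelial-like cells. Without the cell filter as well, the counts were 134 and 225, 81 and 66, 33 and 44, and 43. Without centring, 110 Kupffer-like tiles were higher in library 2 and 2889 lower. With at least 20 fragments, class counts were 4381 and 1982 in library 1 and 3121 and 1574 in library 2, and library counts 804 and 1037 in Kupffer-like and 357 and 353 in endothelial-like cells. With no minimum fold, 16.9% of distal tiles were lower in library 1 (24.8% of all open tiles) and 19.3% in library 2 (19.6%), and library counts were 924 and 1253 (14.8% of distal tiles higher, against 18.5% of all open tiles) and 151 and 228. With each cell at most 2 per tile, 51 endothelial-like tiles were higher. Chosen after seeing the data, leaving out the Kupffer-like cluster of library 2 with under 50% of fragments in peaks gave 676 class-higher tiles in library 2, and keeping cells with at least 50% gave 441 and 168, with 243 Kupffer-like tiles higher in library 2. With all barcodes, 71.6% and 71.0% of fragments were shorter than nucleosomal DNA. Counting noncoding genes as nearest left 100 of 428 tiles next to a listed gene. The 42 values of named class and library extremes kept direction and call in all 296 alternative values that could be tested. They were chosen as extremes and the alternatives reuse the same cells, so this supports nothing. With marker classes 31 of the 42 had too few fragments, and 31 without the cell filter as well. So had 11 with at least 50% in peaks, 6 without the low-share cluster of library 2 and 3 without marked doublets. Of the alternative values of the fullest list tiles, 608 kept call and direction, 21 lost the call, among them Klf4, Klf2, Fth1, Marco and Notch1, and 40 gained one. No paired analysis was possible because each genotype has 1 sample. Motifs in whole tiles were not run.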

Other observations

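Further tiles of the fixed lists and of gene-poor stretches gave the following values. The tile 266 kb from Gata6, a factor gene of mesenchymal cells (chr18:11352001-11353000), was highest in stellate or fibroblast-like cells, where library 1 had 39.6 CPM and library 2 had 27.7. Kupffer-like cells had 6.77 and 5.14 CPM there and endothelial-like cells 6.30 and 6.44 CPM. The tile 27.5 kb from Zeb1 (chr18:5803001-5804000), a gene on the same list, was instead higher in Kupffer-like cells, with relative log2 ratios over endothelial-like cells of 1.96 (0.90 to 3.55) and 1.65 (0.45 to 3.46). The tile 21.6 kb upstream of Flt1, a VEGF receptor gene of endothelium (chr5:147748001-147749000), was called neither way, at 0.48 and -0.22, and was highest in the Gpr141/F7 clusters, at 19.5 and 21.4 CPM. The tile near Cd74, the invariant chain gene (chr18:60792001-60793000), had 5.03 and 2.98 CPM in Kupffer-like cells and 8.34 and 6.93 CPM in the Gpr141/F7 clusters.

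Stretches with many tiles near Cxcr4, a chemokine receptor gene, and near Cited2 were on the Kupffer side in all tested tiles, beside 58.0% of distal and 34.1% of all open tiles higher in library 1 and 50.4% and 25.2% in library 2. Of the 12 tiles of Cxcr4, 15.7 to 240 kb away, all 7 tested in library 1 and all 6 tested in library 2 were higher in Kupffer-like cells. Of the 24 tiles of Cited2, all 13 tested in library 1 and all 3 tested in library 2 were. All 28 and 9 tested tiles of Gm826 were too, and there 7 of 38 were lower and 1 higher in library 2 with each cell at most 2 per tile. The 15 tiles of 1700001O22Rik were on the endothelial side, with 6 of 7 and 3 of 3 lower.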
